A study of Musca domestica with 24 samples.

Results

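The genes described here are 100 genes of the house fly, Musca domestica. In control flies they are read in male abdomens and hardly in female abdomens or in heads. By mean, they stand higher in the abdomens of 1 group of Md-tra RNAi males than in those of control males. They are 100 of the 16540 genes in the tables. They were chosen in steps: an identifier that starts with LOC (16443 genes), mean normalized counts under 50 in control female and control male heads (6041 genes), a control male abdomen mean of at least 500 (330 genes), and every control female abdomen under 1/20 of that mean, which left 296 male abdomen genes. Of these, 115 had a mean in the N group of Md-tra RNAi abdomens over 2 times the control male mean, and the 100 with the highest ratio were taken. The genes were thus chosen by measured values, namely their excess in N, their level in control males and their near absence from control females and control heads, and these values are given below as descriptions. The SR group of Md-tra RNAi abdomens and the heads of both Md-tra RNAi groups were not used for the choice.

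Md-tra is the transformer gene of the house fly. In insects transformer directs splicing of doublesex and fruitless toward their female forms, and in the house fly a male determiner prevents its function, so that loss of transformer turns genotypic females into males. In fly abdomens, genes read in males and hardly in females are typically expressed in the testis, where sperm are made, or in the accessory glands and ducts, which make the proteins of seminal fluid. The identifiers come with no product description in the tables used here, so no function is given to any single gene and none is assigned to testis or gland.

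Heads and abdomens of single flies were sequenced from the strain IIIM (3-6), whose male determiner lies on the third chromosome, in 4 groups of 3 flies per tissue. GFP females and GFP males were genotypic females and males treated with double-stranded RNA against GFP, a jellyfish gene that serves as the control target. The N and the SR flies received double-stranded RNA against Md-tra and were phenotypic males by the labels. By the sample titles, N flies were sex-reversed genotypic females and SR flies genotypic males, but the headers of the deposited comparisons use "normal male" and "sex-reversed male" the other way round. The deposited log2 change of normal against sex-reversed males lay a median of 0.00726 from log2 of N over SR, over 9346 genes, which ties the header word normal to the N libraries. Both groups are therefore called by their codes. No age of the flies is given in the labels. The target gene Md-tra is not analysed here.

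Abdomen libraries held 20916287 to 77407229 reads, except N replicates 1 and 3 with 2689265 and 2756581 and N replicate 2 with 16113838. The 2 shallow N libraries still held a median of 751 and 483 reads per member gene, against 1895 in N replicate 2. Of the 100 genes, the lowest count was 9 reads in N replicate 1 and 28 in N replicate 3, both in genes whose N mean rests on replicate 2. Abdomens are mixed tissue, so more cells of a kind and more RNA per cell cannot be told apart in any value below.

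In GFP male abdomens the 100 genes had means from 508 (LOC101897351) to 58915 normalized counts (LOC109612143), with a median of 978. Their median mean was 4489 in N and 1032 in SR. In GFP females 20 of the 100 had no read in any of the 3 libraries, 66 had 3 reads or fewer in every one, and the highest value was 20.9 normalized counts (87 reads, LOC101889570). The ratio of N mean to GFP male mean ran from 2.92 to 75.9 with a median of 4.46. The genes just inside the limit of 100 were LOC105261505 at a ratio of 3.05, LOC109614151 at 2.95 and LOC101900597 at 2.92, and those just outside were LOC101898014 at 2.79, LOC105261768 at 2.78 and LOC101888847 at 2.75. For the other thresholds, the highest head mean inside was 38.3 normalized counts (LOC101888523) and the nearest outside 54.3 (LOC101892524). LOC101897351, the lowest GFP male mean inside, stands beside 494 for LOC101891713, the nearest outside. As a share of the GFP male mean, the highest GFP female value inside was 2.99% (LOC101889570) and the nearest outside 5.10% (LOC101890668).

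Among the genes with the highest ratios, LOC101898098 on Muller element D, 1 of the chromosome arms conserved among flies, had 901, 1903 and 1932 normalized counts in GFP males 1 to 3, 1547, 592 and 2763 in SR, and 19296, 7404 and 8961 in N. Every N abdomen lay above every other male abdomen, SR replicate 2 lay below all GFP males, and GFP females held 3 reads or fewer. LOC101900845 on element E had 1739, 5803 and 4568 normalized counts in GFP males, 4494, 1530.3 and 5711 in SR, and 44419.7, 17689 and 20573 in N. LOC101888523 on the same element had 1201, 2959 and 3029.6 in GFP males, 2359.7, 930.2 and 4607 in SR, and 26213, 10251 and 10764 in N. For both, the N libraries again stood clear of the GFP male and SR libraries, which overlapped. Mean ratios of N to GFP males were 7.53, 6.83 and 6.57 for these 3 genes, and their ratios of SR to GFP males were 1.03, 0.969 and 1.10.

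LOC101898418, LOC101889013, LOC101892336, LOC101895887 and LOC109613297 also had N libraries clear of GFP male and SR libraries that overlapped. Their GFP male means were 612 to 1837 normalized counts and their ratios of N to GFP males 6.24 to 6.48. LOC101888773 on element E held 5314, 8164 and 10978 normalized counts in GFP males, 11477, 2664 and 10822 in SR, and 53672, 28296 and 33964 in N. LOC101893663 on element D held 3354, 5800.2 and 8257 in GFP males, 4373, 1681 and 7817 in SR, and 37651, 18852 and 22625 in N. In both, N replicate 1 was the highest and SR replicate 2 the lowest male library.

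**Figure D1:**
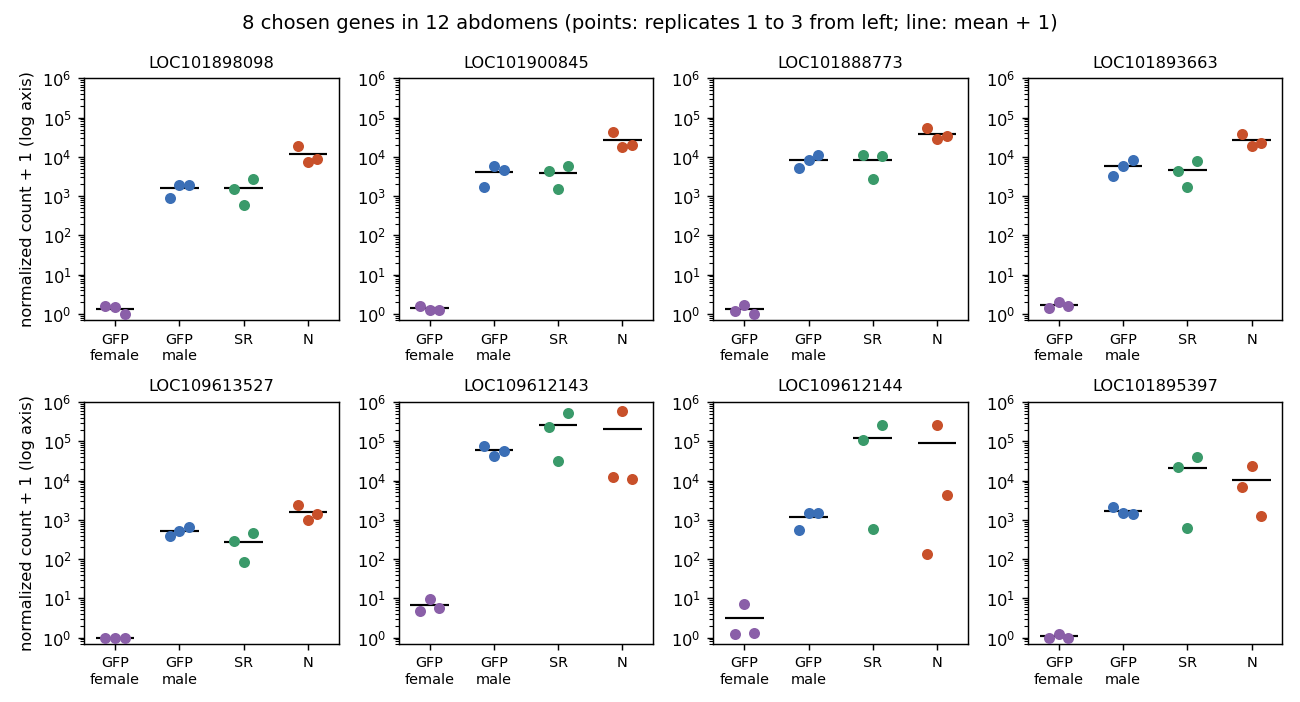
Normalized counts plus 1 (log axis) of 8 of the 100 genes in each abdomen library, with replicates 1 to 3 from left to right in each group and the group mean plus 1 as a line. In the first 5 panels all N points lie above all other points, whereas LOC109612143, LOC109612144 and LOC101895397 are high in N replicate 2 and in SR replicates 1 and 3.

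The order of the libraries was shared by most of the 100 genes, and a pair of layouts was told apart after their values were seen. In 94 genes N replicate 2 was not the highest N library, and in 91 of these replicate 1 was. Expressed over the GFP male mean of each gene, the median of the 94 genes was 0.648, 1.03 and 1.32 in GFP males 1 to 3, 1.11, 0.300 and 1.41 in SR, and 6.20, 3.06 and 3.73 in N. The lowest N median of these 94 genes was over 2 times the highest median of any other male library. The choice by N mean and the split by N replicate 2 both used the N libraries, so this is a description. Every N abdomen lay above every GFP male abdomen in all 94 and in none of the other 6 genes. Over all tested genes, 17.7% had that layout, but the choice by N mean and the split by N replicate 2 fix most of this count. Summed, the 94 genes took 0.271% to 0.622% of normalized counts in GFP males, 0.159% to 0.721% in SR and 1.48% to 3.93% in N.

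The spread between flies was large and common to the genes. GFP male replicate 1 was the lowest GFP male library in 86 of the 100 genes, against 37.5% of all tested genes. SR replicate 2 was the lowest SR library in 99, against 38.9% of all tested genes. SR replicate 3 was the highest in 76, against 40.9% of all tested genes. In N the order from low to high was replicate 2, 3, 1 in 80 genes. N replicate 2 was the lowest N library in 83 and N replicate 1 the highest in 91, against 29.5% and 37.0% of all tested genes. The median coefficient of variation over the 100 genes was 38.2% in GFP males, 40.8% in N and 65.5% in SR, against 25.1%, 36.1% and 31.8% over all tested genes. Since the genes move together from fly to fly, their counts below are not counts of independent events.

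**Figure D2:**
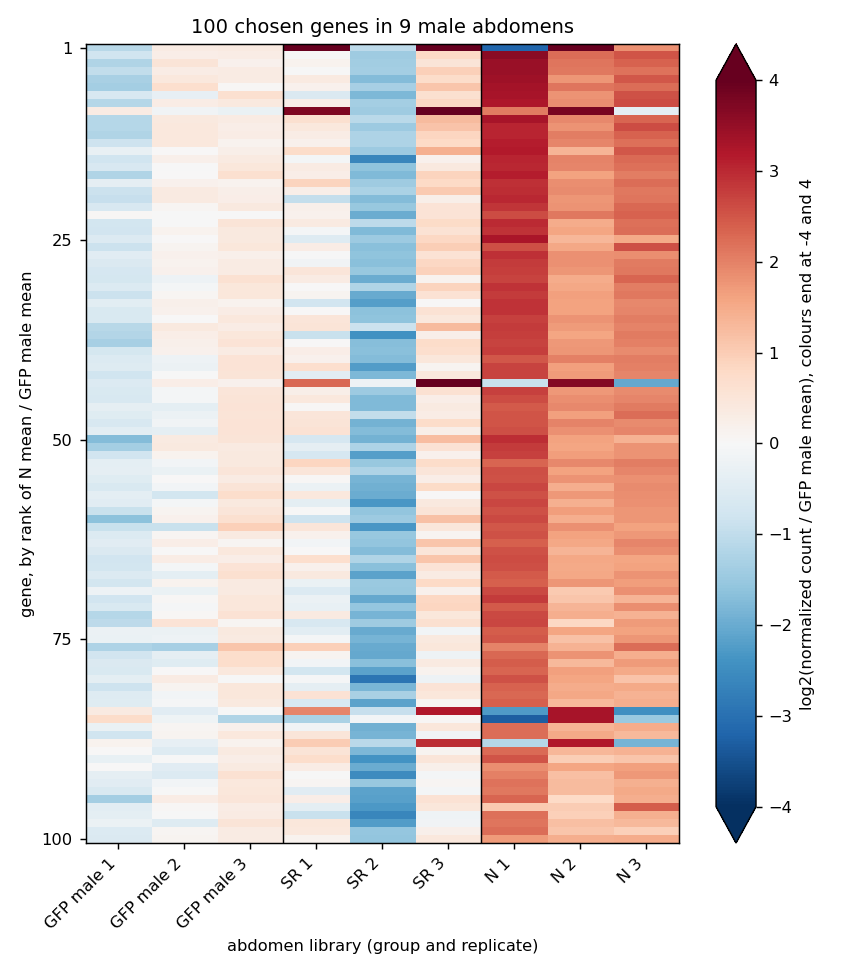
Log2 of normalized count over the GFP male mean (colour) for the 100 genes (rows, from the highest ratio of N to GFP males at the top) in the 9 male abdomen libraries (columns). Nearly all rows are red in the 3 N columns and blue in SR replicate 2, and 6 rows break the layout with high values in N replicate 2 and low values in N replicates 1 or 3.

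The 6 remaining genes were LOC109612144, LOC101895397, LOC109612152, LOC109612143, LOC109612236 and LOC101889570, in which N replicate 2 was the highest N library. LOC109612144, first by ratio at 75.9, had 555, 1494 and 1537 normalized counts in GFP males, 109855 and 257081 in SR replicates 1 and 3 but 578 in SR replicate 2, and 133, 267709.5 and 4290.2 in N. It stood within or below the GFP male values in 1 fly of each Md-tra RNAi group, and its N mean of 90711 ± 153299 (SD, n = 3) and SR mean of 122504 ± 128718 did not differ beyond the spread (limma, Benjamini-Hochberg adjusted p of 0.600). LOC109612143, which RefSeq lists as a long non-coding RNA and which was the most abundant of the 100, had 75974, 42948 and 57821 in GFP males, 227714.5, 31281 and 537708 in SR, and 12331, 580962.5 and 10873 in N. N replicates 1 and 3 were thus below all GFP males for a gene chosen for a high N mean.

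LOC101895397 had 2087, 1511 and 1394 normalized counts in GFP males, 22174, 625 and 41071 in SR, and 7082, 22979 and 1275 in N. LOC109612152 had 1300.1, 2255 and 2133 in GFP males, 9352, 1652 and 30178 in SR, and 1018, 24365 and 459 in N. LOC109612236 had no read in GFP females and stood at 1624, 377 and 6152 in SR and 360.4, 7411 and 218 in N. In these genes, as in LOC109612144 and LOC109612143, SR replicate 3 and N replicate 2 were the highest of their groups and SR replicate 2 the lowest of SR. LOC101889570 differed, with 290.2, 646 and 716 in SR inside the GFP male values of 1175, 618 and 306 or just below them, and with 70.5, 6825 and 249 in N. Over the 6 genes, the median over the GFP male mean was 0.331, 11.4 and 0.314 in N and 4.40, 0.507 and 12.5 in SR. Of the 6, 5 carry no Muller element in the deposited tables, against 14 of the other 94.

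SR abdomens, which did not enter the choice, give the levels of the same 100 genes in the other group of Md-tra RNAi males. The GFP male abdomens, to which SR is compared below, did enter the choice, so the ratios of SR to GFP males are not free of it. SR means lay close to GFP male means, with a median ratio of 0.959 and quartiles of 0.845 and 1.10, where the same genes had a median ratio of 4.46 in N. The mean in SR was 0.5 to 2 times that of GFP males in 95 of the 100 genes and over 2 times in 5, namely LOC109612144 at 102, LOC101895397 at 12.8, LOC109612152 at 7.24, LOC109612143 at 4.51 and LOC109612236 at 3.41. Among the 196 male abdomen genes that were not chosen, the SR mean was within 0.5 to 2 times GFP males in 146. The lowest ratios of SR to GFP males belonged to LOC109613527 at 0.532, LOC101893015 at 0.603, LOC101888664 at 0.632, LOC109613124 at 0.634 and LOC101896325 at 0.640, of which 4 are on element A and LOC109613124 on none.

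LOC109613527 had 399, 510.5 and 655 normalized counts in GFP males, 281, 85.1 and 467 in SR, and 2397, 1015 and 1399 in N, with no read in GFP females. Its SR and GFP male libraries overlapped. None of the 100 genes passed the threshold between SR and GFP males by limma with Benjamini-Hochberg adjustment over 12537 genes, where 0.16% of all genes were called, and the lowest adjusted p was 0.805 (LOC109613527, log2 difference -1.19 ± 0.57 SE). At an unadjusted p under 0.05 there were also 0 of the 100, against 6.5% of all genes. By edgeR 0 were called, against 0.0160% of all genes, and by DESeq2 1, against 2.12% of all genes, namely LOC109612144, with a log2 difference of 6.68 and a Benjamini-Hochberg adjusted p of 0.0219. No gene had all SR libraries above or all below the GFP males, which 8.06% and 7.33% of all tested genes had.

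A missed threshold does not show equal levels. The median log2 difference of SR from GFP males was -0.26 over the 100 genes, with 79 lower and 21 higher, and -0.02 over all tested genes. For the 94 genes with the shared layout, the 95% interval of the limma difference ran from a median of -1.53 to a median of 0.98. Its upper bound lay below the gene's own N difference from GFP males in 94 of 94. The choice of the genes enlarges that N difference, and the error of the N difference was left out. Both differences also share the GFP male libraries, so the count is a description. For the other 6 genes the upper bound lay below the N difference in 0.

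SR replicate 2 stood apart within this comparison. It was below every GFP male in 92 of the 100 genes, against 32.8% of all tested genes and 28.1% of the 196 male abdomen genes not chosen. SR replicate 1 was within the GFP male range in 71 and above it in 21, against 26.2% above it over all tested genes. SR replicate 3 was within the range in 44 and above it in 56, against 33.6% above it over all tested genes. In SR replicate 2 the yolk protein gene yp3, which serves egg provisioning, was at 24021 normalized counts, against 6253 and 7747.5 in the other SR abdomens, 21.1 to 15574 in GFP females, 273 to 1975 in their male counterparts and 669 to 3173 in N. Bcd, the maternal anterior determinant and the other gene of that short marker list, had no read in GFP male and SR abdomens and 5.07 normalized counts (3 reads) in N replicate 2 alone, against 2225 to 3315 in GFP females. The part of other tissues in the values of the 100 genes was not tested.

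**Figure D3:**
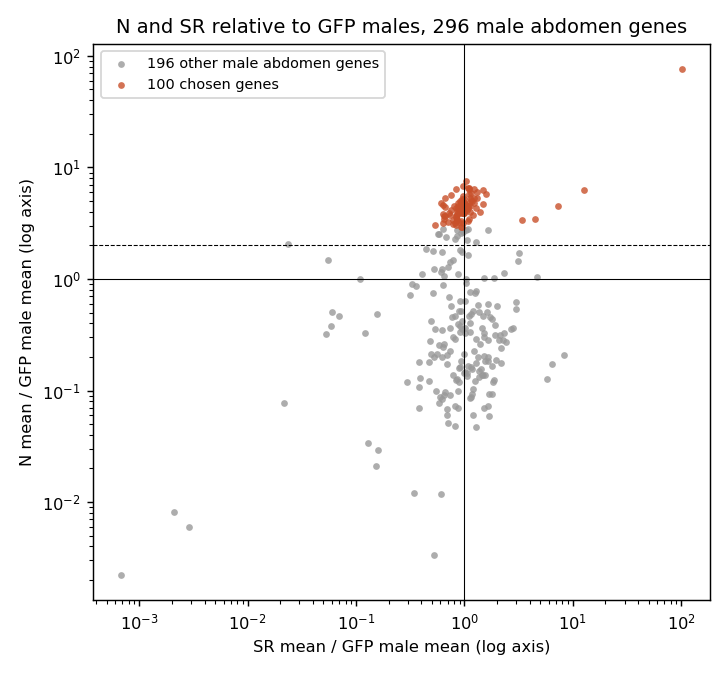
Ratio of the N mean to the GFP male mean against the ratio of the SR mean to the GFP male mean, both on log axes, for the 296 male abdomen genes, with the dashed line at an N ratio of 2. The 100 chosen genes lie above the line by choice and spread around an SR ratio of 1, apart from 5 genes to the right, while 133 of the others lie under an N ratio of 0.5.

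The other male abdomen genes moved between libraries in another pattern. The 133 with an N mean under 0.5 times GFP males had medians over the GFP male mean of 0.834, 1.81 and 0.150 in GFP males 1 to 3, 0.469, 1.70 and 0.0271 in SR, and 0.145, 0.231 and 0.0519 in N. SR replicate 2, the lowest SR library for 99 of the 100 genes, was the highest SR library for 60.2% of all 196 genes not chosen, and GFP male replicate 3, the highest GFP male for 78 of the 100, was the lowest for 61.2% of them. These orders are descriptions of the same 9 flies, and the split of the genes by N fixes their difference in N.

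**Figure D4:**
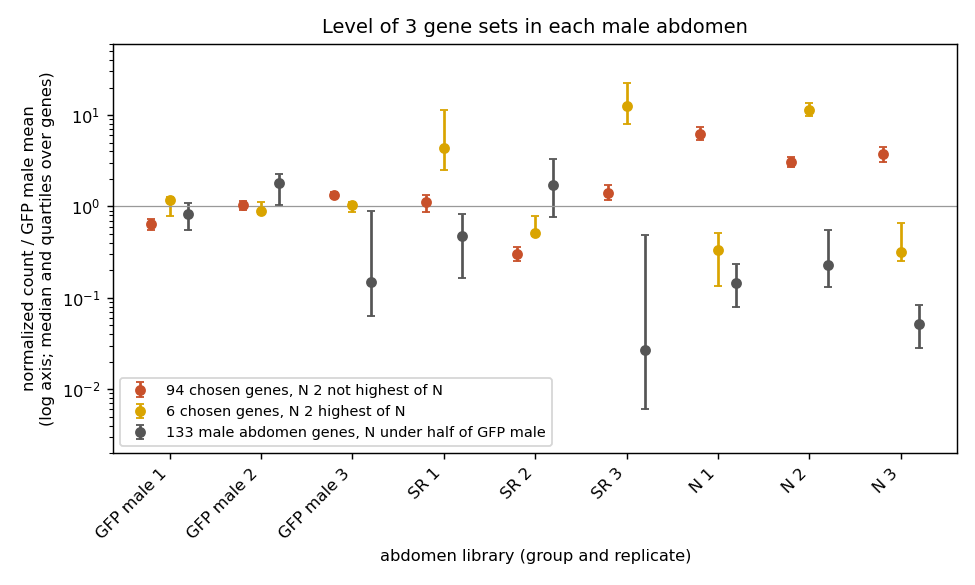
Median and quartiles of normalized count over the GFP male mean (log axis) in each male abdomen library for the 94 genes with the shared layout, for the 6 genes with N replicate 2 highest and for the 133 male abdomen genes with N under 0.5 times GFP males. The 94 genes stand at 3.06 to 6.20 in N and at 0.300 to 1.41 elsewhere, and in SR replicate 2 they are lowest where the 133 genes are near their highest.

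The comparison of N with SR sets both Md-tra RNAi groups side by side, and since a high N mean was part of the choice, its counts are a description. Of the 100 genes, 82 were higher in N and 0 lower by limma with Benjamini-Hochberg adjustment, where 8.56% of all tested genes were higher and 6.05% lower. Every N library was above every SR library in 93 genes, against 17.6% of all tested genes. All 82 were among the 94 genes of the shared layout, and the exception to the separation there was LOC101899587, with 2362 normalized counts in N replicate 2 against 2466 in SR replicate 3. The smallest adjusted p belonged to LOC101893015 on element A, which had 452, 701 and 670.0 normalized counts in GFP males, 356, 132 and 612 in SR, and 4552, 1862 and 2308 in N. Its log2 difference of N from SR was 3.13 ± 0.53 (SE), with a limma Benjamini-Hochberg adjusted p of 0.00845.

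LOC101888287, also on element A, had 468, 273 and 1066 normalized counts in SR and 7348, 3073 and 3987 in N, a log2 difference of 3.12 ± 0.54. LOC109611870 on element D had 1146, 325 and 1405 in SR and 6024, 4191 and 4663 in N, and LOC101893561 on element B 593, 222 and 1083 in SR and 4928, 3061 and 2798 in N. With LOC101898098 these are the 5 genes with the smallest adjusted p, and in each the N and SR libraries did not overlap. The limma Benjamini-Hochberg adjusted p was 0.00917 for LOC101888287, 0.0119 for LOC101898098, 0.0120 for LOC109611870 and 0.0121 for LOC101893561. With N and SR alone in the fit, or without N replicates 1 and 3, which leaves 1 N library, 0 of the 100 were called; edgeR called 33, against 8.55% of all genes, and DESeq2 87, against 23.0%. Without N replicate 1, N replicate 3 or SR replicate 2 the count was 23, 43 or 35, whereas without N replicate 2 it was 81, of which 2, LOC109612143 and LOC109612152, were lower in N at log2 differences of -3.76 and -3.50.

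Against GFP males, the contrast that chose the genes, 54 of the 100 were called higher in N by limma with Benjamini-Hochberg adjustment and 0 lower, where 5.11% of all tested genes were higher and 3.76% lower, and nothing is read from this count. It fell to 0 without N replicate 1, N replicate 3 or GFP male replicate 1, to 1 without GFP male replicate 2 and to 8 without GFP male replicate 3. The N mean stayed over 2 times the GFP male mean in 100 genes without N replicate 1 or 3, and in 95 without N replicate 2. The same 2-fold limit held for all 100 under TMM scaling and scaling to the library total.

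SR abdomens held the male abdomen genes at levels far above GFP females. All 100 were higher in SR by limma with Benjamini-Hochberg adjustment, where 43.7% of all tested genes were, with log2 differences from 5.15 to 14.57 and a median of 9.31, against 0.68 over all tested genes. Every SR library was above every GFP female in all 100, against 46.6% of all tested genes. LOC101900845, with GFP females at 0.619, 0.240 and 0.284 normalized counts, differed by 11.28 ± 0.57 (SE). LOC101888773 stood at 0.206, 0.720 and 0 in GFP females, where its SR libraries began at 2664. Low values in GFP females were part of the choice, the SR levels were not, and TMM scaling shifted the all-gene median of this log2 difference by -0.48.

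Head libraries held little of the 100 genes, as their choice required of control heads. Of these, 58 stayed under 10 normalized counts in all 12 heads, 2 had no read in any head, and 22 passed the filter of 10 normalized counts in 3 libraries. By limma with Benjamini-Hochberg adjustment, 0 of the 22 differed between N and SR heads, where 0.302% of all tested genes did, and 3 had an unadjusted p under 0.05, against 8.18% of all. edgeR and DESeq2 called 0 as well. All N heads were above all SR heads in 4 of the 22, against 6.83% of all tested genes, and all below in 0, against 6.42%.

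The 4 genes were LOC101889013, LOC101888664, LOC101900995 and LOC109612143. In LOC101900995 the lowest N head had 11.78 normalized counts and the highest SR head 11.28. That gap is smaller than 1 read in N head replicate 1, which is worth 1.47. In LOC101889013 the lowest N head had 7.37 and the highest SR head 5.35, the worth of 3 reads in SR head replicate 3. The count of 4 thus rests partly on separations of few reads. LOC109612143 had 11.8, 115.8 and 78.7 normalized counts in N heads against 0, 1.95 and 10.7 in SR heads, and 1.51 to 29.1 in GFP male heads. LOC101888664 had 42.7, 50.4 and 25.2 in N heads, 16.9, 9.73 and 14.3 in SR heads, and 30.6 to 40.9 in GFP male heads. The smallest adjusted p of the 22 was 0.414 (LOC109612143, log2 difference 3.92 ± 1.20 SE). LOC101889570 was the exception among heads, with 22376 normalized counts (34481 reads) in SR head replicate 2 and at most 2.67 in the other 11.

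The deposited tables assign a Muller element to 81 of the 100 genes. Of these, 17 are on element A, 12 on B, 13 on C, 21 on D, 18 on E and 0 on F. Element A, the third chromosome on which the male determiner of this strain lies, thus holds 21.0% of the assigned genes, against 18.0% over all tested genes and 9 of 122 (7.38%) of the male abdomen genes not chosen. Elements B, C, D and E hold 14.8%, 16.0%, 25.9% and 22.2% of the assigned genes. Over all tested genes their shares were 17.1%, 21.0%, 18.6% and 25.1%. The share without an element was 19% in the 100 genes, 37.8% in the male abdomen genes not chosen and 16.9% over all tested genes. In the RefSeq gene table, 85 of the 100 were found by gene ID, 84 as protein coding and 1 as a long non-coding RNA. Their median genomic span was 2042 bases, against 1223 for the male abdomen genes not chosen and 4771 for all tested genes.

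In the authors' deposited table, all 100 genes are listed as higher in GFP males, and again in the libraries named sex-reversed males, than in control females, where 43.8% and 45.3% of all genes were higher. It lists 86 of the 100 as higher and 0 as lower in the Md-tra RNAi males it names normal than in those it names sex-reversed, where 12.4% of all genes in the authors' deposited table were higher. Against GFP males the authors' deposited table has 80 higher in the males it names normal, where 10.8% of all genes were higher.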

How the data were processed

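Poly(A) RNA from single heads and abdomens was sequenced with a stranded kit, per the labels' protocols. The submitters' processing notes name CASAVA 1.8, HISAT2 0.12.2, HTSeq 0.9.1 and DESeq2 1.16.1; the sources used here do not name a genome build or annotation. The authors deposited normalized counts per gene, a signal in which 1 read is worth 0.206 to 7.83 in abdomens. Dividing by that worth gave whole reads for 100% of values above 0 (tolerance 0.001). Log2 fold changes and adjusted p-values in the authors' deposited tables were used only where named.

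The 100 genes, the lists and the tests were chosen with earlier results of these data known. Lists of sperm, testis and seminal fluid genes matched 0 of the 100, since identifiers come without descriptions. The named genes are those with the highest ratios of N to GFP males, the highest N means, the highest and lowest ratios of SR to GFP males, the values nearest each threshold and the smallest adjusted p; LOC101899587, LOC101900995 and the head and layout examples were chosen after their values were seen. Markers of other abdominal tissues, matched by symbol over all genes, gave 2 for ovary and egg, 1 for gut, 3 for fat body and immune effectors and 0 for muscle.

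Log2(normalized count + 1) was fitted over all 12 libraries of a tissue in limma 3.58.1 under R 4.3.3 (empirical Bayes with a trend), for genes with 10 or more in at least 3 libraries: 12537 in abdomens, 12237 in heads. P-values were adjusted by Benjamini-Hochberg over these, with a threshold of 0.05. The test had been planned for either unit, and limma was the test for normalized values. edgeR 4.0.16 and DESeq2 1.42.0 on recovered reads, TMM scaling, other filters and pseudocounts, fits of the compared groups alone, array weights, blocks and leaving out libraries were alternatives. Fold changes on this scale understate low genes. The tissues were scaled separately, and levels were not compared between them. Floors cover counting error only, and near-identical copies may share reads.

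SR and GFP male abdomens of the same number had correlations of deviations from the group means over genes of 0.18, 0.32 and 0.46. SR replicate 2 with GFP male replicate 1 also gave 0.18, and the remaining pairs of unlike number gave -0.45 to -0.07. In the 100 genes, GFP male replicate 1 was the lowest of its group in 86 and SR replicate 2 in 99. Whether replicate numbers pair the flies is not settled by these values. A fit with a block for the replicate number called 0 of the 100 genes between SR and GFP males, as the fit without it did. Replicates are separate flies per the labels.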

Additional observations from a re-analysis of the deposited data

How the results depend on the processing

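Between SR and GFP males, 0 of the 100 genes were called under each alternative run, except DESeq2 with 1; between N and SR heads 0, and between SR and GFP females 100, under each. Between N and SR the count was 82, with 87 by DESeq2, and it moved to 33 by edgeR, 38 with array weights and 0 with only these groups in the fit, with a block for the number in the library code or without both shallow N libraries, which leaves 1 N library (both chosen after seeing the data). Leaving out 1 library gave 23 to 90. Between N and GFP males the count was 54, with 80 by DESeq2 (17.9% of all genes), and it moved to 10 by edgeR (3.45% of all genes), 2 with only these groups, and 0 with the code block or without both shallow N libraries; leaving out 1 library gave 0 to 47. The replicate block gave 84 between N and SR and 49 between N and GFP males, where same-numbered libraries did not all deviate together (correlations from -0.003 to 0.21 and from -0.09 to 0.16). The cause of these moves was not tested. Without both shallow N libraries the N mean was over 2 times the GFP male mean in 96 genes, and with group medians in 95; SR was over 2 times GFP males in 4 to 6. For single named genes, 130 alternative values of N against SR lost the threshold, and none of the differences past the threshold changed sign. Without both shallow N libraries, the 6 genes with N replicate 2 highest turned from lower to higher in N than in SR, on either side without passing the threshold. Genes with few reads in the 2 shallow N libraries are the least precise.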

Other observations

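Markers of other abdominal tissues that were measured under a symbol varied between flies. Lysozyme, the only match of the gut list, stood at 2455, 3266 and 567 normalized counts in GFP male abdomens 1 to 3, 3734, 3801 and 147 in SR, 956, 13565 and 358 in N, and 19.2 to 29.3 in GFP females. The summed fat body and immune genes attacin, diptericin and defensin-1 stood at 41944, 4077 and 7915 in GFP males, 531, 2892 and 7780.5 in SR, 2335, 5482.5 and 1966 in N, and 18.8 to 658 in GFP females. Their part in the values of the 100 genes was not tested.

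At or above the lowest ratio of N to GFP males among the 100, another 616 genes were kept out by the GFP male minimum alone, 27 by the head limit alone and 4 by the GFP female limit alone.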
